A study of Mus musculus with 31 samples.

Results

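Aminoacyl-tRNA synthetase genes were followed in mouse liver through fasting. Members were the genes whose platform symbol has the form of a synthetase name (Cars, Tars2 and the like, with Eprs, Ears2, Pars2, Farsa, Farsb and Fars2), which gave 33 of 22180 genes. By symbol, 17 stand for the cytosolic enzymes and 16, ending in 2, for the mitochondrial ones. The mice were males on a C57BL/6 background, aged 3 to 4 months, and each array held liver RNA of 1 sample labelled as a separate mouse. Some mice had been through 2 fasts of 16 h within 8 weeks and had regained their growth course after each, while the others had eaten freely throughout. In the morning, mice of each history were killed either in the freely fed state or after a 16 h fast, and no drug or genetic change was given. The 4 groups were fed mice with 0 earlier fasts (n = 8), fasted mice with 0 earlier fasts (n = 8), fed mice with 2 earlier fasts (n = 8) and fasted mice with 2 earlier fasts (n = 7). The final fast is called the first fast in mice with 0 earlier fasts and the third fast in mice with 2.

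Synthetases couple amino acids to their tRNAs, as a rule 1 enzyme for 1 amino acid, the step that fixes which amino acid a codon calls for. The cytosol and the mitochondrion run separate protein synthesis, and most amino acids have a nuclear gene for each place, while the Kars and Gars genes encode the enzyme of both. The enzymes fall into class I and class II by the fold of the active site, and several cytosolic ones sit in a large multisynthetase complex in animal cells. Liver makes the plasma proteins and, in fasting, turns amino acids into glucose, so both the supply and the use of aminoacyl-tRNA may shift. Neither was measured here. Uncharged tRNA activates the kinase GCN2 (gene Eif2ak4), which starts the integrated stress response through the transcription factor ATF4, and several cytosolic synthetase genes are known ATF4 targets.

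Values are RMA signals on the log2 scale, so a difference of 1 is a 2-fold change. They ran from -0.0139 to 13.1 with array medians of 2.01 to 2.07, and arrays correlated with each other at 0.965 to 0.982 over all 41345 probe sets. The mean of 8 hepatocyte markers lay between 11.66 and 11.83 on every array. Differences were tested in limma, 2-sided, and a gene counted as called where its adjusted p (Benjamini-Hochberg, 22180 genes) was below 0.05, with errors given as SD for means and SE for differences. The number of arrays limits the precision. Signals of different genes come from different probes and are not compared. In a whole liver, fewer cells of a type and less RNA per cell cannot be told apart.

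The first comparison is of fed with fasted mice that had never been fasted before. In the first fast 9 of 33 members fell and 0 rose, 5 of 17 cytosolic and 4 of 16 mitochondrial. Over all genes 6.23% were called lower and 6.25% higher. Among genes with a mean signal of at least 4, a filter that 29 of the 33 members pass, 14.4% were called lower and 14.7% higher, against 8 of those 29 (27.6%) called lower. In the third fast 9 members fell and 1 rose, where 5.52% of all genes were called lower and 6.06% higher, or 12.7% and 14.2% of genes with a mean of at least 4. Averaged over both fasts, 12 members fell and 1 rose, against 9.36% of all genes lower and 9.79% higher, or 20.3% and 22% of genes with a mean of at least 4. The median log2 change of the 33 members was -0.11 in the first fast, -0.10 in the third and -0.09 averaged, beside a median of -0.00 over all genes in each. Leaving out any of the fasted replicates 5, 6 or 7 with 0 earlier fasts brought the first-fast count down to 6 members.

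**Figure D1:**
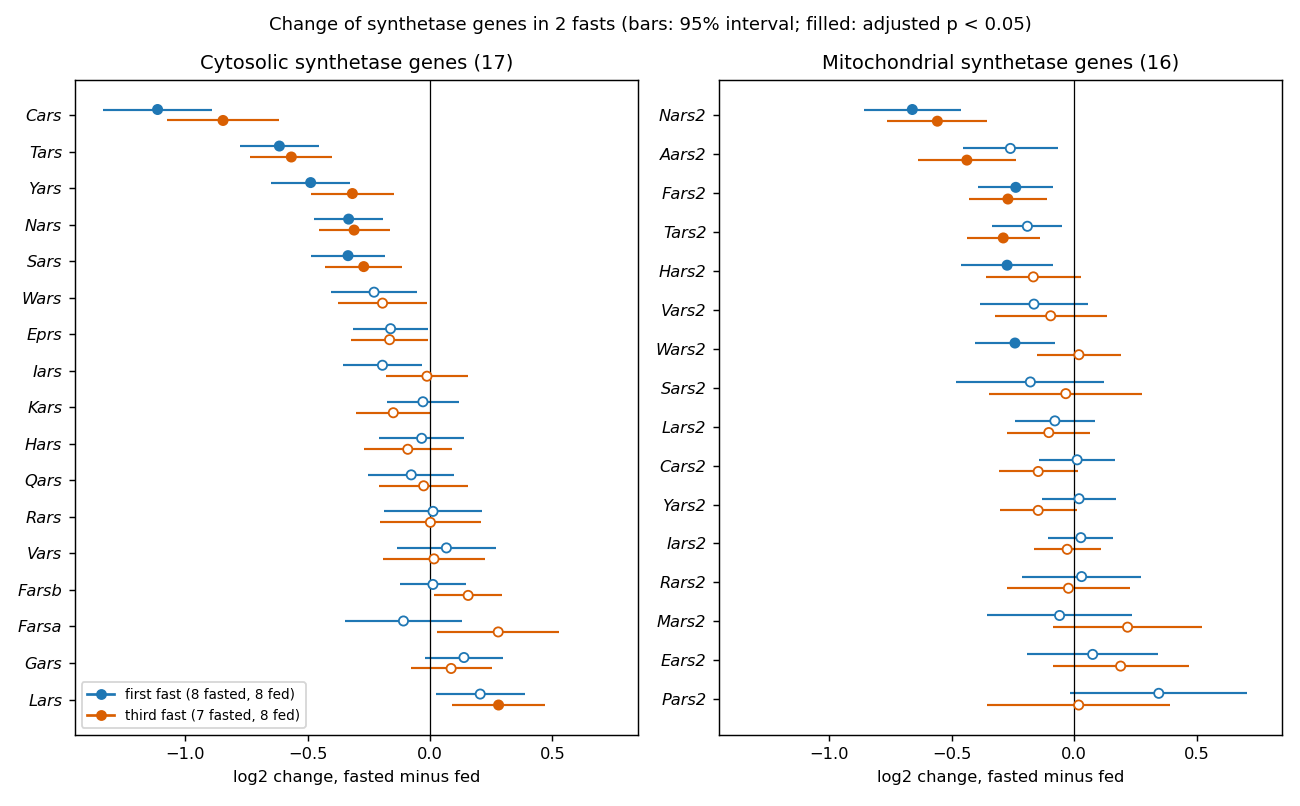
Log2 change, fasted minus fed, of the 17 cytosolic (left) and 16 mitochondrial (right) synthetase genes in the first fast (blue) and the third fast (orange). Points are fitted differences, bars are 95% intervals, and filled points are called at adjusted p under 0.05 in limma. Cars lies farthest to the left in both fasts, and Lars in the third fast is the one filled point right of 0.

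Among the cytosolic genes, 5 fell in both fasts: Cars, Tars, Yars, Nars and Sars, which charge tRNAs with cysteine, threonine, tyrosine, asparagine and serine. Cars changed most. It ran from 5.89 to 6.53 (median 6.11) in fed mice with 0 earlier fasts and from 4.82 to 5.27 (median 5.03) in fasted mice of that history. With 2 earlier fasts it ran from 5.55 to 6.32 (median 6.07) in fed and from 4.76 to 5.31 (median 5.18) in fasted mice. Every fasted mouse was thus below every fed mouse of either history. The mean went from 6.16 ± 0.25 to 5.05 ± 0.16 in the first fast, a log2 change of -1.11 (SE 0.11, limma adjusted p = 1.29e-09), which is 2.16-fold lower. In the third fast it went from 5.98 ± 0.27 to 5.13 ± 0.19, a change of -0.85 (SE 0.11, adjusted p = 8.77e-07 in limma) or 1.80-fold lower.

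Tars ran from 8.91 to 9.38 (median 9.07) in fed and from 8.34 to 8.73 (median 8.47) in fasted mice with 0 earlier fasts, and from 8.82 to 9.31 (median 9.05) fed and 8.26 to 8.66 (median 8.59) fasted in those with 2. Fed and fasted mice did not overlap in either history. Tars fell by 0.62 on the log2 scale in the first fast (SE 0.08, limma adjusted p = 4.25e-07) and by 0.57 in the third (SE 0.08, adjusted p = 4.2e-06), which is 1.53-fold and 1.48-fold lower. For Yars, values in the first fast were 5.49 to 5.91 (median 5.72) fed and 5.03 to 5.42 (median 5.25) fasted, without overlap. In the third fast they were 5.34 to 5.78 (median 5.60) fed and 4.98 to 5.48 (median 5.28) fasted, and here the groups overlapped. Yars fell by 0.49 (SE 0.08, limma adjusted p = 2.36e-05) and by 0.32 (SE 0.08, adjusted p = 0.0074).

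Nars and Sars moved less, with groups that touched or overlapped. Nars had means of 8.20 ± 0.13 fed and 7.87 ± 0.13 fasted in the first fast and 8.17 ± 0.14 and 7.86 ± 0.10 in the third, falls of 0.33 and 0.31 (limma adjusted p = 0.000631 and 0.00224). Sars had means of 7.27 ± 0.14 fed and 6.94 ± 0.08 fasted, a change of -0.33 (limma adjusted p = 0.00147). In the third fast the change of Sars was -0.27 (adjusted p = 0.016), and without fasted replicate 7 with 2 earlier fasts it was -0.23 and not called (adjusted p = 0.0529). With only the 2 groups compared in the fit, the adjusted p for Sars in the third fast was 0.0581.

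**Figure D2:**
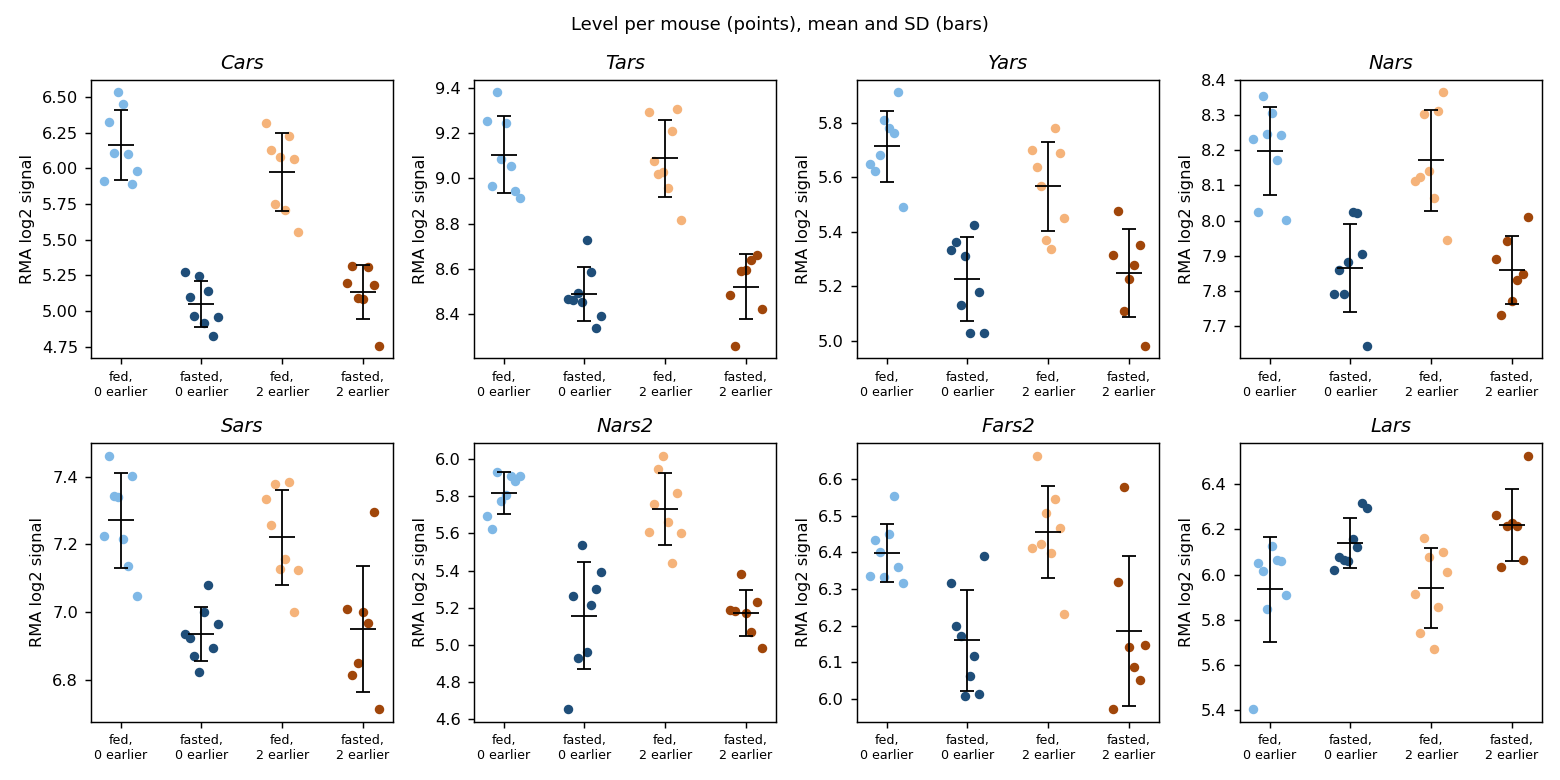
RMA log2 signal per mouse for 8 synthetase genes: the 7 called lower in both fasts and Lars. Points are mice (n = 8, 8, 8 and 7 from left to right), bars are the mean and SD, and each panel has its own vertical axis, which does not start at 0. For Cars, Tars and Nars2 no fasted mouse reaches the fed mice of its history.

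The tryptophan enzyme gene Wars and Eprs, whose protein charges both glutamate and proline tRNAs, fell only in the average of both fasts. Wars went from 5.40 ± 0.09 to 5.18 ± 0.18 in the first fast and from 5.29 ± 0.19 to 5.10 ± 0.19 in the third, an averaged change of -0.21 (SE 0.06, limma adjusted p = 0.0118). In the first fast alone Wars was at -0.23 (adjusted p = 0.0824), which became -0.27 (adjusted p = 0.0299 in limma) without fasted replicate 4 with 0 earlier fasts. The averaged change of Eprs was -0.16 (SE 0.05, limma adjusted p = 0.029). That call of Eprs was lost without fed replicate 5 or 6 with 0 earlier fasts or fasted replicate 1 or 3 with 2 earlier fasts (adjusted p 0.0522 to 0.0601), and with the array median subtracted (adjusted p = 0.0666).

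Lars, the leucine enzyme gene, was the member that rose. It ran from 5.67 to 6.16 (median 5.96) in fed and from 6.03 to 6.53 (median 6.21) in fasted mice with 2 earlier fasts, with overlap. The change was 0.28 in the third fast (SE 0.09, limma adjusted p = 0.0435) and 0.24 averaged over both (SE 0.06, adjusted p = 0.0052), while the first fast gave 0.20 (adjusted p = 0.155), or 0.13 (adjusted p = 0.377) without fed replicate 1 with 0 earlier fasts, the lowest of its group. The third-fast call of Lars was lost without fed replicate 1, 2, 5 or 6 or fasted replicate 1, 3, 4, 5 or 7 with 2 earlier fasts (changes of 0.229 to 0.281, adjusted p 0.0625 to 0.126). It was also lost with cyclic loess (adjusted p = 0.0647), array weights (0.0528) and a fit of only the groups compared (0.056). The averaged call of Lars held in every alternative run for it.

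Lars and Eprs belong to the multisynthetase complex, with Iars, Kars, Qars and Rars among the members. Of these 6, 0 fell in either fast and 1, Lars, rose in the third, while in the average Eprs fell and Lars rose. Mars1, a methionine enzyme gene of the same complex that the naming rule leaves out, fell in the first fast (-0.37, limma adjusted p = 0.000312) and in the average (-0.29, adjusted p = 4.81e-05). Of the 11 cytosolic members outside the complex, 5 fell in the first fast, 5 in the third and 6 in the average, where 6.23%, 5.52% and 9.36% of all genes, or 14.4%, 12.7% and 20.3% of those with a mean of at least 4, were lower. The median averaged change was -0.07 for the 6 complex members and -0.21 for the 11 others. The difference between these groups of genes was not tested. Rars, for arginine, had an averaged change of 0.01 with a 95% interval of -0.14 to 0.15, and Kars, for lysine, -0.09 with an interval of -0.20 to 0.02. Iars, for isoleucine, was at -0.19 in the first fast (adjusted p = 0.118 in limma), and -0.24 (adjusted p = 0.037) without fed replicate 2 with 0 earlier fasts.

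The other cytosolic genes were not called in any comparison. Hars (histidine), Qars (glutamine), Vars (valine) and Farsb, a phenylalanine enzyme subunit, had averaged changes between -0.06 and 0.08. Farsa, the partner subunit of Farsb, was at -0.11 in the first fast and 0.28 in the third (limma adjusted p = 0.694 and 0.16). Gars, for glycine, had an averaged change of 0.11 (limma adjusted p = 0.192), which without fasted replicate 1 with 0 earlier fasts became 0.14 and was called (adjusted p = 0.0422).

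By class of enzyme, 3 of 17 class I members fell in the first fast, 2 in the third and 3 in the average. Of 15 class II members, 6, 7 and 8 fell. The share of all genes called lower was 6.23%, 5.52% and 9.36% in these comparisons, and 14.4%, 12.7% and 20.3% of genes with a mean of at least 4. Eprs, which joins an enzyme of each class, is in neither count. The median averaged change was -0.06 for class I and -0.22 for class II, and the difference between the classes was not tested. The class I members that fell were Cars and Yars in each comparison, Wars2 in the first fast and Wars in the average. Of class II, Tars, Nars, Sars, Nars2 and Fars2 fell in each. Aars2 and Tars2 fell in the third fast and the average, and Hars2 in the first fast and the average.

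Among the mitochondrial genes, Nars2 and Fars2 fell in both fasts. Nars2, for asparagine, ran from 5.63 to 5.93 (median 5.85) in fed and from 4.65 to 5.54 (median 5.24) in fasted mice with 0 earlier fasts. With 2 earlier fasts it ran from 5.44 to 6.02 (median 5.71) in fed and from 4.98 to 5.38 (median 5.18) in fasted mice. The groups did not overlap in either history. Nars2 fell by 0.66 (SE 0.10, limma adjusted p = 4.04e-06) and by 0.56 (SE 0.10, adjusted p = 0.000113), which is 1.58-fold and 1.47-fold lower. Nars2 is also the member with 2 probe sets, and these values are from the one with the higher mean. The other had signals of 1.26 to 2.41 on all arrays, with medians of 1.39 fed and 1.53 fasted in the first fast and 1.87 fed and 1.54 fasted in the third. With the mean of both probe sets Nars2 changed by -0.34 in the first fast, -0.40 in the third and -0.37 on average, and was still called (limma adjusted p = 0.00741, 0.00208 and 2.97e-05).

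Fars2, for phenylalanine, went from 6.40 ± 0.08 to 6.16 ± 0.14 in the first fast and from 6.46 ± 0.13 to 6.19 ± 0.20 in the third, changes of -0.24 and -0.27 (limma adjusted p = 0.0304 and 0.0169). The first-fast call of Fars2 was lost without fed replicate 5 or 6 or fasted replicate 4, 5, 6 or 7 with 0 earlier fasts (adjusted p 0.0527 to 0.0707). The third-fast call was lost without fasted replicate 1 with 2 earlier fasts (adjusted p = 0.0514) and with only the groups compared (adjusted p = 0.0621). The averaged change of Fars2 was -0.25 (SE 0.05, limma adjusted p = 0.000515) and kept its call under every alternative run.

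Aars2, for alanine, and Tars2, for threonine, were called in the third fast and in the average. Aars2 ran from 4.64 to 5.16 (median 4.75) in fed and from 4.02 to 4.63 (median 4.36) in fasted mice with 2 earlier fasts, without overlap, and fell by 0.44 (SE 0.10, limma adjusted p = 0.00179). In the first fast its change was -0.26 (adjusted p = 0.0726). Tars2 went from 5.82 ± 0.13 to 5.53 ± 0.10 in the third fast, a change of -0.29 (limma adjusted p = 0.00539). In the first fast Tars2 was at -0.19 (adjusted p = 0.0748), and without fed replicate 2 with 0 earlier fasts it was at -0.24 and called (adjusted p = 0.0138).

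Hars2, for histidine, and Wars2, for tryptophan, were called in the first fast and not in the third. Hars2 went from 5.12 ± 0.13 to 4.84 ± 0.18, a change of -0.27 (SE 0.09, limma adjusted p = 0.0446), and its averaged change of -0.22 was also called (adjusted p = 0.0145). Wars2, a dim gene with signals of 2.40 to 3.21, changed by -0.24 in the first fast (SE 0.08, limma adjusted p = 0.0436) and 0.02 in the third, and its average of -0.11 was called in 1 of the alternatives, the one that left out fed replicate 2 with 0 earlier fasts (there adjusted p = 0.0425). Both first-fast calls were near the threshold. Leaving out 1 library ended the Hars2 call for fed replicates 1, 2, 3, 4, 5 and 7 and fasted replicates 1, 3, 5, 6 and 7 of the history without earlier fasts, and for fed replicate 4 with 2 earlier fasts (adjusted p 0.0501 to 0.117). It ended the Wars2 call for fed replicates 3, 4, 6, 7 and 8 and fasted replicates 2, 3, 5, 6, 7 and 8 of the same history (adjusted p 0.0509 to 0.117).

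The other 10 mitochondrial genes were not called in any comparison. Their averaged changes ran from -0.13 for Vars2 to 0.18 for Pars2, the proline enzyme gene. For Iars2 the averaged change was -0.00 with an interval of -0.10 to 0.09, and for Cars2, the mitochondrial cysteine enzyme gene, -0.07 with an interval of -0.18 to 0.04. Rars2, Yars2, Lars2, Sars2, Mars2 and Ears2 lay between -0.11 and 0.13. Sars2, Wars2, Mars2 and Pars2 had mean signals below 4, at 3.63, 2.70, 2.36 and 2.23.

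The 2 places of protein synthesis were next compared amino acid by amino acid, in 11 pairs of measured genes whose symbols differ only by the ending 2. Phenylalanine, glutamate and proline were measured in both places but not paired by this naming. Averaged changes were -0.25 for Fars2 and 0.08 for both Farsa and Farsb, and -0.16 for Eprs, 0.13 for Ears2 and 0.18 for Pars2. Their differences were not tested. The difference between the cytosolic and the mitochondrial change was fitted beside all genes, so its p was adjusted over 22191 rows. Averaged over both fasts, 5 of the 11 pairs differed. In that comparison 19.1% of all genes were called in either direction, or 42.3% of those with a mean of at least 4. The cytosolic gene changed more negatively for cysteine (Cars against Cars2, difference -0.91, SE 0.09, limma adjusted p = 5.98e-10), threonine (Tars against Tars2, -0.35, adjusted p = 0.00024) and tyrosine (Yars against Yars2, -0.34, adjusted p = 0.000147). For asparagine the probe set used for the mitochondrial gene fell more (Nars against Nars2, difference 0.29, limma adjusted p = 0.00645). With the mean of both Nars2 probe sets, however, the difference was 0.05 and not called (adjusted p = 0.761). The second Nars2 probe set was dim, with signals of 1.26 to 2.41. A mean that takes it in pulls the Nars2 change toward that of the dim probe set. That setting therefore cannot decide whether the asparagine pair differs. For leucine the cytosolic gene rose and the mitochondrial gene was not called (Lars against Lars2, difference 0.33, limma adjusted p = 0.00218).

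The other 6 pairs did not reach the threshold. The 95% intervals of the difference were -0.15 to 0.16 for arginine (Rars, Rars2), -0.22 to 0.02 for tryptophan (Wars, Wars2), -0.25 to 0.05 for isoleucine (Iars, Iars2), -0.01 to 0.33 for histidine (Hars, Hars2), -0.05 to 0.39 for valine (Vars, Vars2) and -0.44 to 0.05 for serine (Sars, Sars2). In the first fast alone the pairs of Cars, Nars, Tars and Yars were called, and in the third those of Cars and Lars. In these fasts 12.5% and 11.6% of all genes were called in either direction. Among genes with a mean of at least 4 the shares were 29.1% and 26.9%. The averaged pair calls other than that of Nars held in every alternative run for them. The first-fast call of the Nars pair was lost with the mean of both Nars2 probe sets (difference 0.01, adjusted p = 0.984), and without fed replicate 2, 3, 6, 7 or 8 or fasted replicate 1, 3, 5 or 6 with 0 earlier fasts (adjusted p 0.0537 to 0.111 in limma), and that of the Lars pair was gained without fed replicate 2 (adjusted p = 0.028). The third-fast call of the Lars pair was lost without fed replicate 5 or fasted replicate 7 with 2 earlier fasts (adjusted p = 0.051 and 0.0814). The Tars pair was called in that fast without fed replicate 8 of the same history (adjusted p = 0.0309).

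**Figure D3:**
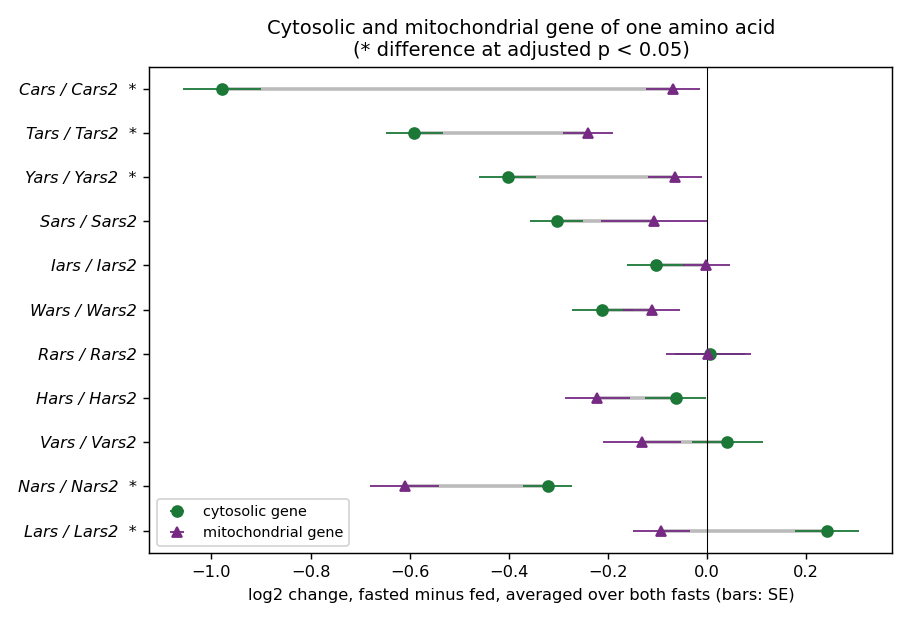
Log2 change averaged over both fasts for the cytosolic gene (green circle) and mitochondrial gene (purple triangle) of each of 11 amino acids. Bars are SE, a grey line joins each pair, and a star marks a difference called at adjusted p under 0.05 in limma. The star of the asparagine pair is lost with the mean of both Nars2 probe sets, a mean that takes in the dim one. The cysteine pair is 0.91 apart and the arginine pair lies close to 0.

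The fed and fasted mice of the 2 histories are separate animals, so both responses can be set side by side. Of the 9 members called in the first fast and the 10 called in the third, 7 were called in both, all lower: Cars, Tars, Yars, Nars, Sars, Nars2 and Fars2. That is 77.8% of the first list and 70.0% of the second, beside 66.1% and 71.3% for all genes. Across the 33 members the changes correlated with r = 0.84, and across all genes with r = 0.85, which describes genes that share arrays and are not replicates.

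**Figure D4:**
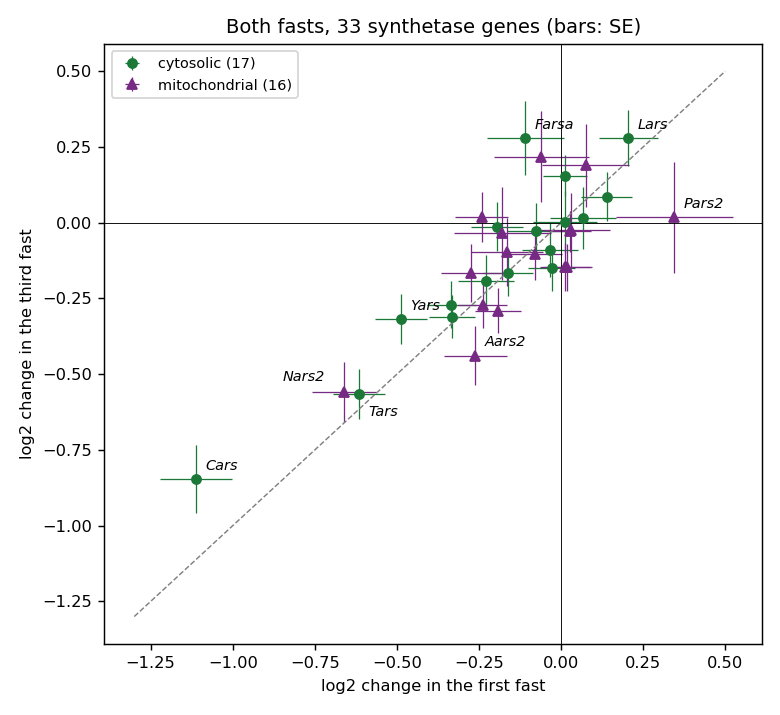
Log2 change in the first fast (horizontal) against the third fast (vertical) for 17 cytosolic (circles) and 16 mitochondrial (triangles) synthetase genes, with SE bars and the line of equal change. Cars, Nars2, Tars and Yars lie at the lower left in both fasts.

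Whether earlier fasts changed the level of these genes was asked in fed and in fasted mice. No member was called for history in fed mice, for history in fasted mice or for the interaction of history and final state in limma (0% of all genes in each). At an unadjusted p under 0.05 there were 2, 1 and 2 members, beside 1245, 996 and 1023 of all 22180 genes. Those members, named after their values were seen, were Aars2 (0.20) and Wars2 (-0.24) in fed mice, Iars2 (-0.17) in fasted mice, and Farsa (0.39) and Wars2 (0.26) in the interaction. For Cars, the response was weaker in the third fast by 0.27 with a 95% interval of -0.05 to 0.59 (limma adjusted p = 0.999). For Tars the interval of that difference was -0.18 to 0.28 and for Nars2 -0.18 to 0.39.

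The mean deviation of the 17 cytosolic genes from their overall means, per array, was 0.11 ± 0.11 fed and -0.08 ± 0.07 fasted with 0 earlier fasts, and 0.04 ± 0.09 fed and -0.08 ± 0.03 fasted with 2. For the 16 mitochondrial genes it was 0.06 ± 0.11, -0.06 ± 0.06, 0.05 ± 0.10 and -0.06 ± 0.07. Fed and fasted arrays overlapped in both sets. Fed replicate 5 with 0 earlier fasts was the highest array for the cytosolic genes, at 0.30. Markers of some other liver cells were called lower with the fast. Of 8 Kupffer cell markers, 6 fell in the first fast, 3 in the third and 7 in the average, with 0 higher, and their mean signal per array ran from 5.16 to 6.35 in fed and 4.69 to 5.88 in fasted mice with 0 earlier fasts, and from 4.81 to 5.93 and 4.58 to 5.66 with 2. Of 7 stellate cell markers 3 fell in each of the 3. Over all genes 6.23%, 5.52% and 9.36% were called lower in these comparisons, and 9.79% higher in the average. In the average 1 of 7 sinusoidal endothelial markers rose and 3 fell, and 1 of 5 lymphocyte markers fell. Of 4 cholangiocyte and of 5 neutrophil and monocyte markers 0 were called. Of 8 hepatocyte markers 3 rose and 1 fell in the average. The part of these cell types in the synthetase results was not tested.

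Genes that work beside the synthetases were read from lists, whose counts stand beside the averaged shares over all genes (9.79% higher and 9.36% lower) and over genes with a mean of at least 4 (22% and 20.3%). Of 14 measured partners of tRNA charging, such as complex scaffolds, mitochondrial amidotransferase subunits and selenocysteine enzymes, 2 rose and 2 fell in the average. Sephs2, a selenophosphate synthetase, fell by 0.26, Gatb, an amidotransferase subunit, fell by 0.24, and Eef1e1, a complex scaffold protein also called AIMP3, rose by 0.21. The call of Eef1e1 was near the threshold and was lost on leaving out any of 18 arrays (limma adjusted p up to 0.0652). Of 35 cytosolic translation factors, 13 rose and 1 fell, with a median of 0.07. Eif6, which binds the large ribosomal subunit, rose by 0.55, Eif5 by 0.33, Eif3k by 0.32 and Eif2b2 by 0.28. Of 11 mitochondrial translation factors 2 rose and 1 fell, and of 71 mitochondrial ribosomal proteins 16 rose and 9 fell, with medians of -0.03 and 0.03. For the mitochondrial ribosomal proteins that is 22.5% higher and 12.7% lower, and for the cytosolic translation factors 37.1% and 2.86%. Mrpl17 rose by 0.77 and Mrps27 fell by 0.63. Of 19 genes of RNA polymerase III and its factors, which transcribe tRNA genes, 3 rose and 2 fell. The fallers were the subunit genes Polr3k (-0.78) and Polr3g (-0.63), and the 3 that rose are not named here.

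The integrated stress response was read from 30 measured genes, of which 7 rose and 6 fell in the average, with a median of 0.08. Atf5, a transcription factor, rose by 1.11, Gpt2, an aminotransferase, by 1.03, Cebpb, a partner of ATF4, by 0.86 and Sesn2, a sensor of leucine, by 0.86. Atf4 itself, added after its values were seen, went from 7.23 fed to 6.77 fasted in the first fast and from 7.19 to 6.80 in the third, and fell by 0.43 in the average (limma adjusted p = 1.58e-05). Asns, the asparagine synthetase gene and a known ATF4 target, also added after its values were seen, had an averaged change of 0.49 and was not called (adjusted p = 0.0703). Asns was called without fed replicate 6 or fasted replicate 3 or 8 with 0 earlier fasts, or fed replicate 1 with 2 (limma adjusted p 0.0276 to 0.0428). Of 5 measured genes of eIF2 kinases and their regulator Impact, 2 rose and 2 fell. Those that fell were Eif2ak3, the PERK kinase gene, by 0.47 and Eif2ak4, the GCN2 kinase gene, by 0.27. The 2 that rose are not named here.

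**Figure D5:**
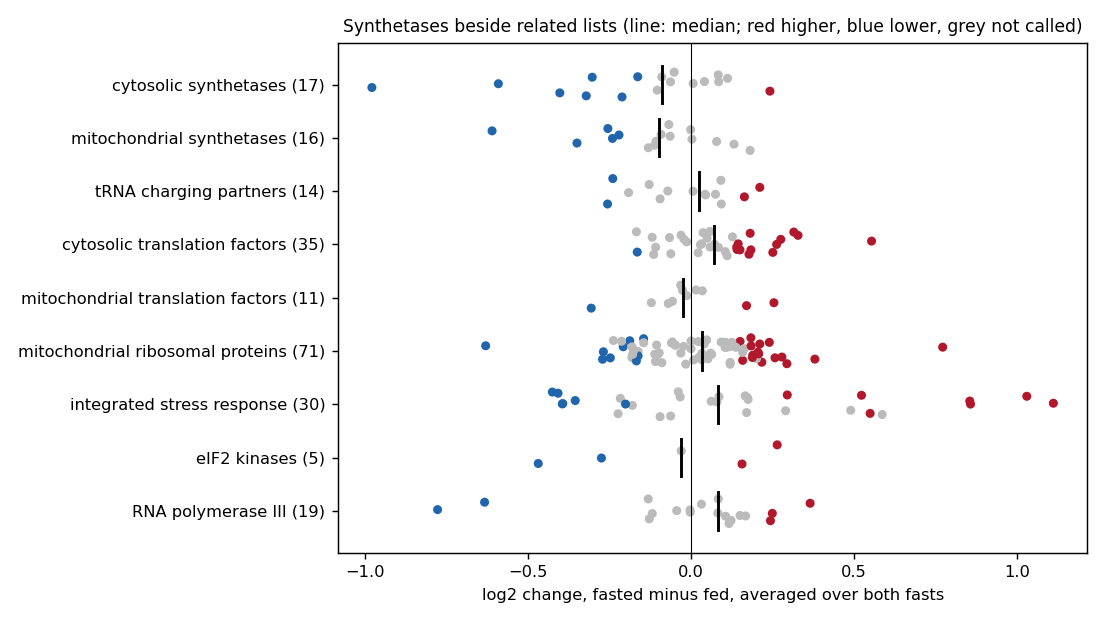
Log2 change averaged over both fasts for each gene of the synthetase groups and of 7 related lists, with the number of measured genes in brackets. Red points were called higher, blue points lower and grey points not at all in limma, and a black line marks the median. The synthetase medians are -0.09 and -0.10, and that of the cytosolic translation factors is 0.07.

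Promoter sequences were read for the members, since cytosolic synthetase genes are known to carry elements bound by ATF4 with C/EBP proteins. RefSeq windows of 250 bases before to 50 bases after a start (GRCm38.p6) were found for 24 of the 33 members, 10 cytosolic and 14 mitochondrial, and are missing here for Cars, Nars, Wars, Hars, Hars2, Lars, Pars2, Rars and Vars. The letters TGATGNAA, the core of the C/EBP-ATF response element, searched on both strands, stood in 4 of 10 cytosolic and 0 of 14 mitochondrial genes, and in 3.92% of 16990 measured genes with a window. The 4 sites follow because they are all the matches among the members. Each is printed 5′ to 3′ on the gene's strand with the matching letters in capitals, which read as the reverse complement in Gars, Iars and Tars:
Yars chr4:129189895-129189924, plus strand: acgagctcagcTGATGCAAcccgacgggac
Gars chr6:55037960-55037989, plus strand: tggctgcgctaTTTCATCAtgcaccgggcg
Iars chr13:49682126-49682155, plus strand: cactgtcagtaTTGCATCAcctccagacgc
Tars chr15:11399655-11399684, minus strand: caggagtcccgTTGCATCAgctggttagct

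The match begins 3 bases after the start in Yars, 30 before it in Gars, 7 after it in Iars and 15 before it in Tars. Of these 4 genes, Tars and Yars fell in both fasts, and Gars and Iars were not called in either. The match is a description of letters and shows no binding.

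The letters TGACGTCA (the cAMP response element) stood in 0 of 24 members and 2.65% of genes. CACGTG (the E-box) stood in 4 of 24 members, Farsb, Ears2, Iars and Tars, and 9.19% of genes. The consensus site of NRF1 (both strands) stood in 5 of 24, Mars2, Farsb, Iars2, Kars and Tars, and 7.24% of genes. No 2 matches overlapped. The 250 bases before the start are shown for Tars and Nars2, the members with a window and the largest changes in both fasts on the probe sets used. Capitals in Tars mark an NRF1 match and the C/EBP-ATF letters, both read on the opposite strand, and Nars2 held none of the 4 motifs:
Tars chr15:11399659-11399908, minus strand: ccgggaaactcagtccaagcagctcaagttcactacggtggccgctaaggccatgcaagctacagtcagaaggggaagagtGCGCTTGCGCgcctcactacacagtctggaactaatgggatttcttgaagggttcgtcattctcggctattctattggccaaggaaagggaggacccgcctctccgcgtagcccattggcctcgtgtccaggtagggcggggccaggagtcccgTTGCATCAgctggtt
Nars2 chr7:96951277-96951526, plus strand: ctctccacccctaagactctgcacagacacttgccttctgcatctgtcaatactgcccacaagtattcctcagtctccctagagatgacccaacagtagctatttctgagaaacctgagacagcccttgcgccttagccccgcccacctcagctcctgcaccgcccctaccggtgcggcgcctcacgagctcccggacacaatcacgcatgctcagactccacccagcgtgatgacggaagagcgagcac

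Some synthetase genes lie outside the rule. Mars1, the cytosolic methionine enzyme gene of the multisynthetase complex, had in the first fast fasted values of 6.58 to 7.07 below fed values of 7.08 to 7.30, and in the third fast a change of -0.22 that was not called (limma adjusted p = 0.0581). Tarsl2, a threonine enzyme relative, was not called in either fast (0.14 and 0.04). The alanine enzyme gene Aars shares its probe set's annotation with Exosc6, and that probe set changed by -0.12 in the first fast (adjusted p = 0.498 in limma).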

How the data were processed

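Liver RNA (100 ng of total RNA, biotin label) of 31 mice was hybridised to Affymetrix whole-transcript arrays, 1 array per sample. The deposited values are log2 signals that the authors made with RMA, per the submitters' processing notes. Which version was run is not stated there. RMA corrects background, equalises the distributions of all arrays and sums probes per probe set, so differences common to most genes of an array are removed before deposit.

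Of 41345 probe sets, 23521 carried 1 gene symbol in the platform annotation, 1814 carried more and 16010 carried none. For 1082 genes with several probe sets the one with the highest mean over all arrays was used, which gave 22180 genes. All 33 members matched a RefSeq symbol. Groups follow the sample titles. A group-means model was fitted to all 31 arrays with limma 3.58.1 in R 4.3.3 with the package data.table, version 1.17.8, and 6 comparisons were made: the response to the final fast in each history and on average, history in fed and in fasted mice, and the interaction. A p-value measures the spread between samples labelled as separate mice. Intervals are 95%. Pair differences entered the same model as extra rows.

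The members and lists were chosen with earlier results of these data known, so lists were described by counts and medians and not tested. Every member is named. Of other lists, some of the called genes are named, 4 at most and not always from both directions. Atf4, Asns and members with small unadjusted p were added after their values were seen. Tested on simulated data for all 22180 genes, with 200 changed genes in each of 5 draws, the fit recovered 97.8% of 2-fold, 86.0% of 1.5-fold and 5.0% of 1.2-fold changes in the first fast. It recovered 98.5%, 84.5% and 5.4% in the third fast, 99.7%, 96.5% and 36.5% in the average and 91.7%, 54.5% and 0.1% in the interaction. In the data 2768 genes were called in the first fast and 2569 in the third, more than the 200 simulated, so recovery there can differ. Promoter windows come from RefSeq (GRCm38.p6). Python 3.11.15 with pandas 2.3.3 and matplotlib 3.10.9 made the summaries and plots. The alternatives were 8 other settings and leaving out each of the 31 arrays.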

Additional observations from a re-analysis of the deposited data

Results flagged for a closer look

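In 132 sets of 1 member in 1 group, 9 values stood far from the rest of their set by Dixon's test at the 95% level. By chance this happens in about 1 in 20 sets. In fed mice with 0 earlier fasts, replicate 5 was high for Hars (7.356, next 6.931) and for Vars (5.377, next 4.888), and replicate 1 was low for Lars (5.402, next 5.845). In fasted mice with 0 earlier fasts, replicate 5 was high for Cars2 (4.843, next 4.502). In fed mice with 2 earlier fasts, replicate 1 was high for Aars2 (5.159, next 4.798), replicate 4 was low for Gars (7.257, next 7.415) and replicate 8 was low for Wars2 (2.405, next 2.606). In fasted mice with 2 earlier fasts, replicate 7 was low for Cars (4.756, next 5.081) and replicate 5 was high for Rars2 (5.591, next 5.163).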

How the results depend on the processing

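The counts of called members stayed within 1.5 times the reported ones. Leaving out each of the 31 arrays gave 6 to 10 members in the first fast, 8 to 10 in the third and 12 to 14 in the average, and 0 for history and interaction. Other settings (mean of a gene's probe sets, genes with a mean of at least 4, intensity trend, cyclic loess, array median subtracted, only the groups compared, array weights, replicate block) gave 7 to 12, 7 to 10 and 12 to 13. No called member turned direction. Counting genes with a mean of at least 4 alone added Aars2, Iars, Tars2 and Wars in the first fast (adjusted p 0.0264 to 0.0474 in limma). Tars2 in that fast was also called with cyclic loess (0.0468) and array weights (0.0437). Hars2 there lost its call with an intensity trend (0.0508), array median subtracted (0.0574) and array weights (0.0784), and Wars2 with an intensity trend (0.0897), cyclic loess (0.0593), array median subtracted (0.0566) and only the groups compared (0.105). Asns was called on average among genes with a mean of at least 4 (0.0348). With the mean of a gene's probe sets the Nars pair was not called in the first fast (difference 0.01) or the average (0.05). The Nars pair also lost its first-fast call with an intensity trend (0.0585), array weights (0.0662) and only the groups compared (0.0767). The alternatives for pairs were chosen after seeing the data. The causes were not tested. Titles number replicates in each group. The shared deviation of same-numbered arrays was weak (13 of 45 pairs over 0.1, median correlation 0.0537, range -0.186 to 0.28). For 9 of the 31 arrays the closest array of another group had the same number, so a weak link is possible. The numbers were not taken as pairs in the main fit. A replicate block gave 9, 10 and 13 members and called the Tars pair in the third fast (limma adjusted p = 0.038). In the simulation, changes of 1.2-fold were mostly not called. It held fewer changed genes than were called in the data, so it cannot set the smallest change that these arrays can call. In the data, members with changes near 1.2-fold went both ways. Fars2 was called in both fasts and in the average, and Tars2, Lars, Hars2 and Wars in the average. Aars2 and Wars in the first fast and Farsa in the third were not called.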
